A study of Mus musculus with 15 samples.

Results

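The laminin and integrin genes of mouse proximal small intestinal epithelium were compared between sorted fetal and sorted adult cells. Laminins are secreted trimers of an alpha, a beta and a gamma chain that form the sheet of the basement membrane under an epithelium. Integrins are pairs of an alpha and a beta chain that cross the cell membrane and hold the cell to such matrix. In the gut the laminin chains change along the crypt and villus axis and during development, and the Itga6 and Itgb4 chains pair to build hemidesmosome-like anchors on laminin. Members were the rows of the in vivo count table whose symbol has the form of a laminin chain (Lama, Lamb or Lamc and a digit) or of an integrin chain (Itga or Itgb and up to 2 further characters). There were 39 members among 24594 rows, 11 laminin and 28 integrin genes. The form also takes Itgbl1, an integrin-like secreted protein that is no chain of a receptor, which was kept.

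RNA-seq counts were available for 3 libraries of E16.5 fetal cells (strain C57Bl/6J, untreated, sorted as EpCAM-positive, CD31-negative, CD45-negative and DAPI-negative) and 3 libraries of adult crypt cells (C57Bl/6J, wildtype, untreated, from the first 20% of the small intestine, labelled as EpCAM-positive, lineage-negative, DAPI-negative and mid-range for CD24). The growth protocol of the adult samples speaks instead of leaving out cells negative for DAPI and lineage markers, which conflicts with that label. The labels give neither the genotype nor the number of fetuses behind a fetal library, and no age in days for the adults. Age and sort gate changed together, and so may the library kit, which is given for the adult libraries only. Their shares in a difference cannot be told apart. The series also holds 9 organoid libraries, whose table carries no gene identifiers, so no member was followed there.

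Total counts were 5795518 to 10538004 per library. All 10 epithelial markers had counts in both groups and were tested, with 8 lower in fetal cells and 0 higher. Cldn3 was 2.89-fold, Krt19 2.57-fold and Krt8 2.16-fold lower, and Cdh1 and Epcam changed less. Cdh1 stood at 1448 ± 9.53 CPM (counts divided by the library's TMM-scaled total, mean ± SD, n = 3) in fetal and 1742 ± 86.02 CPM in adult cells, and Epcam at 844 ± 12.9 and 1034 ± 51.2 CPM. The list sum was 5328 to 5510.05 CPM in fetal and 8055 to 8434 CPM in adult libraries. Of 17 mesenchyme genes 11 were tested and all 11 were higher in fetal cells, 10 of them tested only through their fetal counts (sum 136 to 186 against 7.78 to 15.9 CPM, 8 of the 17 at 0 counts in adult and none in fetal cells). Of 8 smooth muscle genes 6 were tested and all 6 were higher, 5 of them in that way (sum 46.1 to 87.7 against 3.05 to 5.30 CPM, with Actg2, Des and Lmod1 at 0 in adult cells). Sums in fetal against adult libraries were 749 to 1629.7 against 4.49 to 6.79 CPM for exocrine pancreas genes, 33.05 to 63.5 against 0.170 to 0.354 CPM for mesothelium genes and 31.6 to 55.6 against 0.509 to 1.38 CPM for erythroid genes. Of 10 neuron and glia genes 6 were tested, with Ednrb, Elavl4, Ret, S100b and Tubb3 higher in fetal cells, 4 of these 5 tested only through their fetal counts, and Erbb3 lower. Ret, the most abundant of those that were higher, stood at 44.4 ± 11.2 against 3.76 ± 0.684 CPM, and the list sum was 401 to 432 against 396 to 565 CPM, most of it Erbb3. The endothelium list summed to 2.12 to 8.23 against 5.30 to 7.63 CPM, with Esam lower in fetal cells, and Cdh5 (35 counts) and Kdr (14) at 0 in adult cells. The part of these cells in the differences below was not tested. In bulk libraries fewer cells of a type and less RNA per cell cannot be told apart.

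Of the 39 members, 26 passed the filter on low counts and were tested (edgeR quasi-likelihood test, Benjamini-Hochberg adjustment over 13314 genes, called at an adjusted p under 0.05). Fetal cells were higher for 14 (53.8%) and lower for 9 (34.6%), against 29.0% higher and 25.9% lower of all tested genes, or 54.9% called in either direction. The laminins leaned one way, with 7 of 9 tested higher and 1 lower. Of the 7, Lama1, Lama4 and Lamb1 were tested only through their fetal counts. The integrins split, with 7 of 17 tested higher and 8 lower. A total of 5 members (Itga9, Itgb7, Lama1, Lama4 and Lamb1) stood over the count limit in every fetal but not in every adult library, and Itgae in every adult but not in every fetal one, so that these had to differ to be tested. Of the 20 members over it in all 6 libraries, 9 were higher and 8 lower, against 23.1% and 27.8% of the 11356 genes of that kind. The median log2 fold change, fetal over adult, was 0.58 over the 26 members and 0.01 over all tested genes. Groups did not overlap for 24 of the 26 (92.3%), against 62.3% of all tested genes. Both this share and the median include the members that had to differ to be tested, and neither was computed without them.

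**Figure D1:**
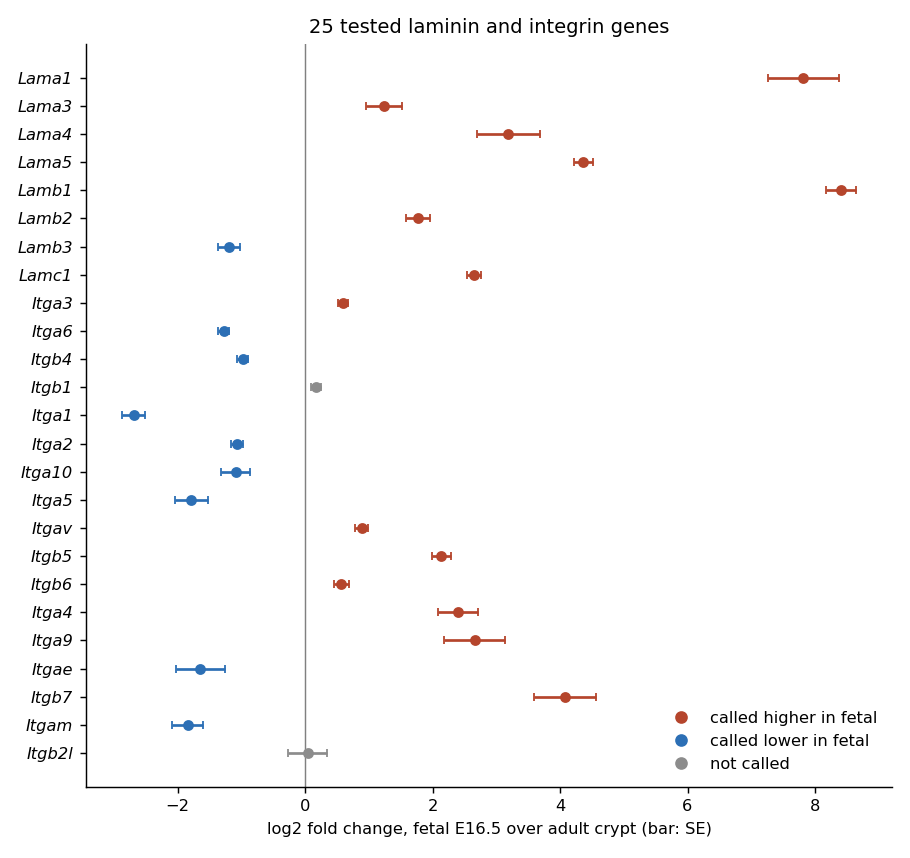
Log2 fold change of fetal E16.5 over adult crypt cells (x axis, bars are the standard error) for 25 of the tested genes, colored by call. Lamb1 and Lama1 lie farthest to the right, and Itga1 farthest to the left at -2.69.

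The genes of the laminin beta chains moved in opposite directions. Lamb1, the beta chain of embryonic and most adult basement membranes (Entrez 16777, chr12:31265234-31329644 in mm10, plus strand), stood at 97.05, 119 and 95.1 CPM in the 3 fetal libraries, in replicate order. Its adult values were 0.354, 0.170 and 0.346 CPM, a total of 5 counts against 2747. It was nearly silent in every adult and abundant in every fetal library (log2 fold change 8.41 ± 0.23, adjusted p = 2.23e-11). Lamb3, which joins Lama3 in the anchoring laminin of hemidesmosomes, went the other way. It stood at 8.61, 11.3 and 13.1 CPM in fetal and 23.5, 23.2 and 29.6 CPM in adult libraries (log2 fold change -1.19 ± 0.18, adjusted p = 8.60e-05), and each adult library lay above each fetal one. Lamb2, a beta chain known from muscle, kidney and nerve, was at 26.2, 22.8 and 19.9 against 5.66, 6.11 and 8.30 CPM and rose by 1.77 ± 0.19 on the log2 scale.

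The sequences before the starts of Lamb1 and Lama5 are shown because these chains had the highest fetal levels among the beta and alpha laminin genes and were both higher there than in adult cells. Each comes from the 250 bases before the gene's start in RefSeq (GRCm38.p6, the assembly of mm10), less any base past the gene's start in GENCODE, and is written 5′ to 3′ on the gene's strand, with matches to 4 motifs in capitals.
Lamb1, chr12:31265043-31265233, plus strand: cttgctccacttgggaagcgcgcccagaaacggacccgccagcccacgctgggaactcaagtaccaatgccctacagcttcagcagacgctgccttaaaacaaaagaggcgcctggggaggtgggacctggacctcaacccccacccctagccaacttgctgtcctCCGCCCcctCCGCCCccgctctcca
Lama5, chr2:180225860-180226109, minus strand: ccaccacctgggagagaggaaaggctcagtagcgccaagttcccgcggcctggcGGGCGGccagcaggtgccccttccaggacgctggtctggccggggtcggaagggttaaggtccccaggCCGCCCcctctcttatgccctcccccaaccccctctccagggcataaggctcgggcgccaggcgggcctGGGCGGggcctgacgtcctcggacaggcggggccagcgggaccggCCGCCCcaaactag
The motifs, searched on both strands, were the GC box GGGCGG, the TEAD motif GGAATG, the AP-1 motif TGANTCA and the TATA box TATAAA. The GC box occurred at 2 places in the Lamb1 window and at 4 in the Lama5 window. Over all 32851 RefSeq windows of this length, 32.7% held the GC box, 12.6% the TEAD motif, 6.75% the AP-1 motif and 12.4% the TATA box. RefSeq windows were matched for 25 of the 39 members, 28 windows in all. Of these, 10 held the GC box, 3 the TEAD motif, 1 the AP-1 motif and 0 the TATA box. The RefSeq windows of Lamb3 lie inside the gene as GENCODE draws it and are not shown.

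All 4 tested laminin alpha chain genes were higher in fetal cells, against 29.0% of all tested genes, but Lama1 and Lama4 were tested only through their fetal counts. Lama5, the main alpha chain of mature epithelial basement membranes (Entrez 16776, chr2:180176373-180225859), stood at 106, 118 and 90.6 CPM in fetal and 5.48, 4.58 and 5.19 CPM in adult libraries (log2 fold change 4.36 ± 0.15, adjusted p = 1.22e-10). Lama1, the alpha chain of the first embryonic basement membranes, stood at 20.7, 18.2 and 11.9 CPM in fetal libraries. It had 1 count in adult replicate 1 and 0 in the other adult libraries, a ratio of 285 (50.9 to 11282) with its 95% counting interval. Its fitted log2 fold change of 7.82 ± 0.56 was 10.01 without adult replicate 1. Lama4, an alpha chain of vessels and mesenchyme, stood at 6.49, 3.74 and 3.00 against 0.530, 0.339 and 0.519 CPM (log2 fold change 3.19 ± 0.49). Lama3, the alpha chain of the anchoring laminin, stood at 6.49, 7.61 and 10.97 against 2.83, 4.41 and 3.46 CPM and rose (log2 fold change 1.24 ± 0.28, adjusted p = 0.00235). Lama3 and Lamb3, chains of 1 trimer, so differed in opposite directions. Lama2, the alpha chain of muscle, had 22 counts in fetal and 3 in adult cells, too few for the test, with a ratio of 4.76 (1.43 to 24.8).

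Lamc1, the gamma chain shared by most laminins (Entrez 226519, chr1:153218922-153332786), stood at 237, 220.4 and 202 CPM in fetal and 37.8, 30.5 and 36.6 CPM in adult libraries (log2 fold change 2.65 ± 0.11, adjusted p = 4.31e-10). Every fetal library was above every adult one. Lamc3 had 3 fetal counts and 1 adult count and was not tested.

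**Figure D2:**
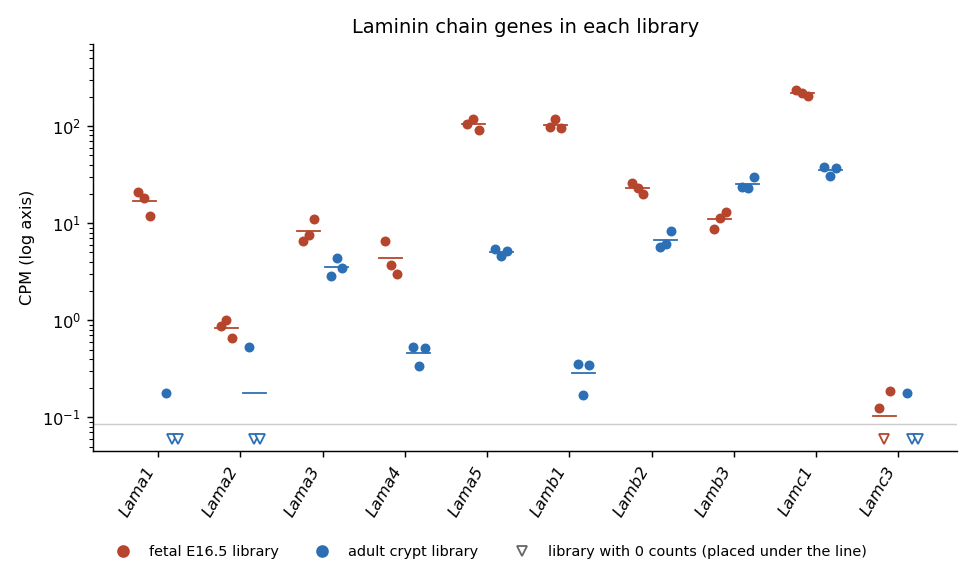
CPM on a log axis (y) of 10 laminin chain genes (x) in each fetal and adult library, with a short line at the group mean where it is above the lowest axis value, and open triangles for libraries with 0 counts. The fetal points lie above the adult points for Lama1, Lama5, Lamb1 and Lamc1, and below them for Lamb3.

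Among fetal libraries, replicate 3 had the lowest sums of mesenchyme genes (181, 186 and 136 CPM in replicates 1 to 3) and smooth muscle genes (71.7, 87.7 and 46.1 CPM). It also had the lowest Lama1, Lama4, Lama5, Lamb1, Lamb2 and Lamc1, whereas Lama3 and Lamb3 were highest there. Its Lamb1, at 95.1 CPM, was close to the 97.05 CPM of replicate 1. Replicate 2, with the highest of both sums, was highest for Lama5 and Lamb1 but not for Lama1, Lama4, Lamb2 or Lamc1. A link between these levels and the marker sums was not tested. Without fetal replicate 3 the log2 fold change of Lamb1 was 8.47, that of Lama3 0.99 and that of Lamb3 -1.34, each still called.

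Counts per kilobase of exon were used to compare chains with each other. Summed over a family, the laminin alpha chains stood at 12.6 ± 1.56 CPM per kb in fetal and 0.879 ± 0.0226 in adult cells (SD, n = 3), a ratio of 14.3. The beta chains stood at 23.98 ± 2.31 against 6.20 ± 0.953 CPM per kb, a ratio of 3.87. Fetal cells held more RNA of both families, with the wider gap in the alpha chains.

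The composition of these chain families differed between the groups as well. Lamb1 made up 72.4, 76.5 and 72.8% of beta chain counts per kilobase in fetal libraries and 1.07, 0.514 and 0.810% in adult libraries. Lamb3 made up 7.32, 8.32 and 11.4% and 81.2, 80.3 and 79.00%, so that the leading beta chain was Lamb1 in every fetal and Lamb3 in every adult library. Lamb2 held a like share in both, 17.1% ± 2.78 and 19.1% ± 1.21. Of the alpha chains, Lama5 made up 70.3, 75.6 and 73.7% in fetal and 53.2, 46.3 and 52.8% in adult libraries, while Lama3 made up 4.55, 5.17 and 9.46% and 29.1, 47.2 and 37.3%. For the shares of Lama5 and Lamb1 and of Itgb4 among integrin beta chains, the groups did not overlap. A two-sided exact permutation test gave p = 0.1 for each, the smallest that 3 against 3 libraries can give. Lamb1 had passed the low-count filter only through its fetal counts, so the test of its share adds no support.

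**Figure D3:**
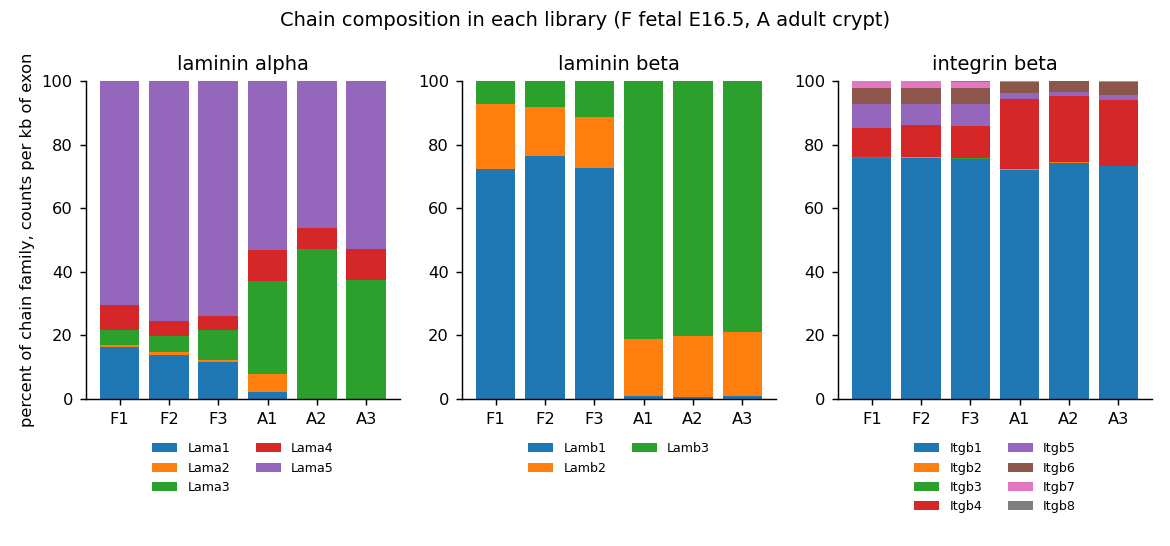
Share of each chain gene (y, percent of the family's counts per kilobase of exon) in fetal libraries F1 to F3 and adult libraries A1 to A3, for laminin alpha and beta chains and integrin beta chains. Lamb1 fills most of the laminin beta bar in fetal and Lamb3 in adult libraries, while Itgb1 fills most of the integrin beta bar in all 6.

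Itgb1, the beta chain that pairs with most alpha chains of matrix receptors, was abundant in both groups. It stood at 356, 367 and 369 CPM in fetal and 312, 342 and 318 CPM in adult libraries, and its log2 difference of 0.17 ± 0.08 was not called (adjusted p = 0.0858). Fetal values were all above adult ones, and scaling by library size alone gave 0.21 with an adjusted p = 0.0351 in edgeR's test, which is past the threshold. Per kilobase of exon it had the highest level of all members in fetal cells, 95.3 ± 1.77 CPM per kb. In adult cells it stood at 84.9 ± 4.15 and Itga6 at 91.6 ± 4.04 CPM per kb. These ranges overlap, and the difference was not tested.

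The chains of laminin receptors moved apart. Itga6, the laminin-binding alpha chain that also marks basal and stem cells in several tissues (Entrez 16403, chr2:71786940-71856771), stood at 152, 178 and 165 CPM in fetal and 397, 383 and 418 CPM in adult libraries (log2 fold change -1.28 ± 0.09, adjusted p = 5.63e-08). Itgb4, its hemidesmosome partner (Entrez 192897, chr11:115974709-116008412), stood at 73.5, 80.3 and 83.1 against 159, 159.99 and 148 CPM (log2 fold change -0.98 ± 0.08, adjusted p = 6.22e-07). Both were lower in each fetal library than in any adult one. Itga3, the other main epithelial laminin receptor chain, which pairs with Itgb1, stood at 189, 191 and 194 against 128, 127 and 126 CPM and was higher in fetal cells (log2 fold change 0.59 ± 0.08, adjusted p = 2.17e-05). In fetal cells the levels of Itga6 and Itga3 per kilobase were 37.8 ± 2.96 and 36.5 ± 0.464 CPM per kb, which did not differ beyond their spread. In adult cells they were 91.6 ± 4.04 and 24.2 ± 0.192 CPM per kb, and Itga3 there lay next to Itgb4 at 24.4 ± 0.987. Itgb4 made up 9.36, 9.94 and 10.2% of integrin beta chain counts per kilobase in fetal and 21.9, 20.8 and 20.5% in adult libraries. Itga7, a laminin receptor chain of muscle, had only 10 counts in fetal and 14 in adult cells and went untested.

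All 3 tested alpha chains of collagen receptors were lower in fetal cells, against 25.9% of all tested genes. Itga1 stood at 12.1, 11.5 and 8.53 CPM in fetal and 57.3, 62.3 and 85.9 CPM in adult libraries, the most negative fold change of the tested members (log2 -2.69 ± 0.18, adjusted p = 4.66e-08). Itga2 stood at 38.5, 38.3 and 40.02 against 77.8, 80.4 and 87.1 CPM (log2 fold change -1.07 ± 0.09). Itga10 stood at 5.24, 5.86 and 4.12 against 11.1, 12.4 and 8.64 CPM (log2 fold change -1.09 ± 0.23), and 34.5% of its exon bases are shared with Gm42957 on the same strand in GENCODE, so its counts are uncertain. Itga11, a collagen receptor chain of fibroblasts, had 19 fetal and 3 adult counts, a ratio of 4.11 (1.21 to 21.7), and was not tested.

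Of 4 tested chains of receptors for RGD-bearing ligands such as fibronectin, vitronectin and latent TGF-beta, 3 were higher in fetal cells and Itga5 was lower. Of all tested genes 29.0% were higher and 25.9% lower. Itgav, the alpha chain that pairs with Itgb5, Itgb6 and Itgb8, stood at 51.6, 51.4 and 51.4 CPM in fetal and 28.8, 27.8 and 26.6 CPM in adult libraries (log2 fold change 0.89 ± 0.10). Itgb5, a vitronectin receptor chain, stood at 30.8, 29.1 and 30.3 against 7.60, 5.94 and 6.91 CPM, with the widest change of this group (log2 fold change 2.14 ± 0.15, adjusted p = 9.60e-08). Itgb6, the epithelial chain that activates latent TGF-beta, stood at 37.4, 37.2 and 38.3 against 23.9, 24.4 and 27.8 CPM (log2 fold change 0.57 ± 0.11). Itga5, the classical fibronectin receptor chain, was lower, at 6.11, 4.86 and 2.81 against 13.96, 14.4 and 18.3 CPM (log2 fold change -1.79 ± 0.26, adjusted p = 6.77e-05). The groups did not overlap for any of these 4 genes, nor for 62.3% of all tested genes. Itgb8 (41 fetal and 10 adult counts), Itgb3 (10 and 1), Itga8 (8 and 0) and the platelet chain Itga2b (18 and 21) were not tested. The platelet genes Ppbp and Treml1 were at 0 counts in all 6 libraries and Pf4 in the adult ones.

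Itga4 and Itga9, related alpha chains for fibronectin, VCAM1 and other ligands, were both higher in fetal cells. Itga4 stood at 10.9, 15.96 and 20.7 CPM against 4.07, 1.70 and 3.28 CPM (log2 fold change 2.40 ± 0.32, adjusted p = 2.89e-05). Itga9 stood at 4.24, 2.49 and 3.37 against 0.884, 0.509 and 0.173 CPM (log2 fold change 2.66 ± 0.48), resting on 9 adult counts.

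Chains best known from leukocytes were low in both groups. Itgb7, which pairs with Itga4 or Itgae in gut-homing lymphocytes, stood at 6.86, 7.48 and 7.03 CPM in fetal and 0.884, 0 and 0.346 CPM in adult libraries. Its log2 fold change of 4.08 ± 0.49 was 5.24 without adult replicate 1 and 3.50 without adult replicate 2. Adult replicate 1 held 5 of its 7 adult counts. Itgae, the chain of intraepithelial lymphocytes that binds E-cadherin, was lower in fetal cells, at 0.499, 1.12 and 1.12 against 3.36, 3.05 and 2.42 CPM (log2 fold change -1.64 ± 0.39). Itgam, a myeloid chain, was also lower, at 4.24, 2.37 and 3.47 against 13.3, 11.03 and 12.1 CPM (log2 fold change -1.84 ± 0.24), but 70.04% of its exon bases are shared with Gm49368 on the same strand, so its counts are uncertain. Itgb2l, a close relative of Itgb2 whose reads could be shared with it, stood at 2.62, 3.74 and 4.59 against 4.07, 3.73 and 2.94 CPM, overlapped and was not called (log2 0.05 ± 0.31).

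The untested leukocyte chains had few counts. Itgb2 had 7 fetal and 5 adult counts, Itgal 18 and 8, Itgad 1 and 7, and Itgax 0 and 9. Of the 16 leukocyte markers found in the table, 5 were tested, with Csf1r, Lck and Laptm5 higher and Cd68 lower. Lck and Laptm5 stood under the count limit in an adult library and were tested through their fetal counts. The list summed to 41.1 to 43.8 CPM in fetal and 35.97 to 40.8 CPM in adult libraries. The pan-leukocyte gene Ptprc had 6 fetal and 9 adult counts. Gzma and Gzmb, granzymes of intraepithelial lymphocytes, had 0 fetal counts and 16 and 15 adult counts, and Adgre1 was at 0 in all libraries. Other untested genes of the list went either way. Cd3e had 19 fetal and 2 adult counts, Cd3g 0 and 5, and Cd8a 3 and 8. The part of such cells in the changes of Itgb7, Itgae and Itgam was not tested. Itgbl1, the integrin-like gene, had 37 counts in fetal and 5 in adult cells and went untested.

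**Figure D4:**
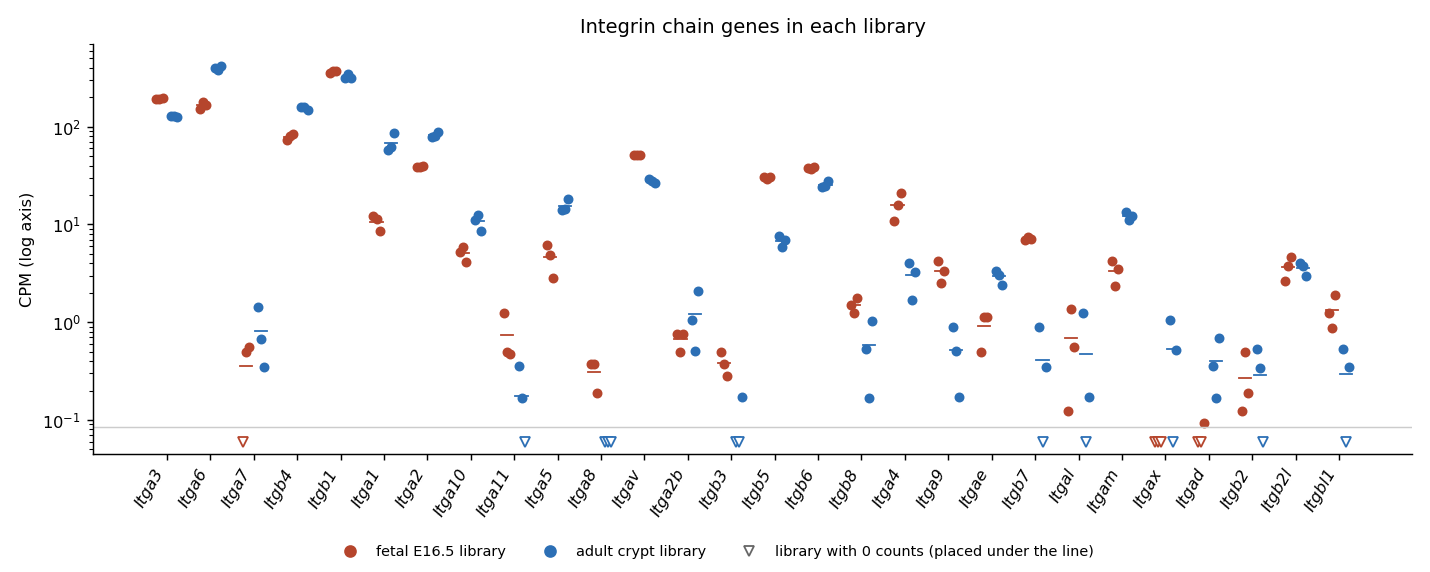
CPM on a log axis (y) of the 28 integrin genes (x), ordered by the ligand or cell type of the chain, in each fetal and adult library; short lines are group means where drawn and open triangles mark libraries with 0 counts. Itga6 and Itgb4 are lower and Itga3, Itgav and Itgb5 higher in the 3 fetal libraries, and Itgb1 lies close in both groups.

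The genes that laminins and integrins work with were read from 5 lists of 110 genes in all, 92 of them tested, of which 41 were higher (44.6%) and 26 lower (28.3%) in fetal cells, against 29.0% and 25.9% of all tested genes. Of the 41, 23 were under the count limit in an adult library and were tested through their fetal counts. Of the 67 genes over the limit in all 6 libraries, 18 were higher and 25 lower, against 23.1% and 27.8% of all such genes. Among 17 tested basement membrane partners 11 were higher and 2 lower, but 8 of the 11 were tested only through their fetal counts, and of the 8 genes over the limit in all libraries 3 were higher and 2 lower. Nid1, the nidogen that links the laminin gamma chain to collagen IV, stood at 57.9 ± 6.70 CPM in fetal cells over 3 adult counts, a ratio of 339 (116 to 1646). The fit gave a log2 of 8.25 ± 0.30, or 9.14 when adult replicate 3 was left out. The collagen IV chain Col4a1 was higher by a log2 of 6.38 ± 0.37, or 7.30 without adult replicate 2. Col4a2 and the collagen-binding matrix protein Sparc had 0 adult counts and were at least 62.8-fold and at least 128-fold higher when a group with none is set to 3 counts. Hspg2, the heparan sulfate proteoglycan perlecan, was lower (log2 -1.07 ± 0.20), as was Ntn4, a laminin-related netrin (-0.98 ± 0.18). Sparc and the collagen genes are also made by mesenchyme, whose markers were higher in the same libraries. The part of such cells in these differences was not tested.

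Of 12 tested integrin ligands 9 were higher and 1 lower, against 29.0% and 25.9% of all tested genes, but 7 of the 9 were tested only through their fetal counts. Of the 5 genes over the limit in all libraries 2 were higher and 1 lower, against 23.1% and 27.8% of all such genes. Spp1, the secreted ligand osteopontin, stood at 79.3 ± 8.36 CPM over 1 adult count, a ratio of 1369 (245 to 54078). The fit gave a log2 of 10.05 ± 0.31, or 12.25 when adult replicate 1 was left out. Vtn (vitronectin), Fbn1 (fibrillin) and Ltbp1, which holds latent TGF-beta, had 0 adult counts and were at least 41.3-fold, at least 40.03-fold and at least 36.4-fold higher. Cdh1, the partner of Itgae, was lower by a small step (log2 -0.27 ± 0.09, adjusted p = 0.0196), and without fetal replicate 1 or 2 or with library size scaling it was not called (adjusted p = 0.0543, 0.0596 and 0.0533 in edgeR's test).

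The list of other laminin receptors and hemidesmosome genes had 3 of 13 tested higher (23.1%) and 7 lower (53.8%), with a median log2 fold change of -0.25. Of all tested genes 29.0% were higher and 25.9% lower. Of the 12 genes of the list over the count limit in all libraries, 2 were higher and 7 lower, against 23.1% and 27.8% of all such genes. Bcam, a receptor for the Lama5 chain, was higher, at 31.1, 33.3 and 29.2 against 7.07, 3.05 and 6.05 CPM (log2 2.53 ± 0.22), and Dst, a cytoskeletal linker, was higher by 1.74 ± 0.10. Sdc4, a syndecan of focal adhesions, was lower at a log2 of -1.30 ± 0.09, the tetraspanin Cd81 at -1.17 ± 0.09 and the keratin Krt8 at -1.11 ± 0.08. Dystroglycan (Dag1), a laminin receptor outside the integrin family, was lower at a log2 of -0.86 ± 0.08. Cd151, the tetraspanin partner of laminin-binding integrins, was lower at a log2 of -0.52 ± 0.10 and Plec, which ties Itgb4 to keratins, at -0.25 ± 0.09. The call of Plec was lost with library size scaling (adjusted p = 0.0769 in edgeR's test) and without fetal replicate 1 or 3 or adult replicate 1 or 2 (0.129, 0.106, 0.0817 and 0.0646). Col17a1, a hemidesmosome collagen, stood at 1.37, 2.87 and 10.3 CPM in fetal and 1.94, 1.19 and 1.04 CPM in adult libraries, and its call (log2 1.85 ± 0.67) was lost without fetal replicate 3, at 0.62, and without adult replicate 2 or 3 (edgeR adjusted p = 0.0949 and 0.0792).

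Inside the cell, the adhesion complex list had 9 of 32 tested genes higher (28.1%) and 12 lower (37.5%), with a median of -0.16. Of all tested genes 29.0% were higher, a share close to that of the list, and 25.9% lower. Of the 9, 3 were under the count limit in an adult library. Of the 29 genes over it in all libraries 6 were higher and 12 lower, against 23.1% and 27.8% of all such genes. The kindlins, which switch integrins on, moved apart. Fermt1, the epithelial form, was lower, at 117, 104 and 109.8 against 192, 185 and 216 CPM (log2 -0.84 ± 0.09), whereas Fermt2, the form of most other tissues, was higher, at 13.7, 13.8 and 12.7 CPM over 4 adult counts (log2 5.76 ± 0.42, or 7.01 without adult replicate 2). Fermt3, the blood cell form, was higher by 1.72 ± 0.42, or 2.55 without adult replicate 2. Among the tensins, Tns4 was lower, at 2.00, 2.12 and 2.44 against 90.9, 87.9 and 112 CPM (log2 -5.45 ± 0.16), and Tns2 was lower at a log2 of -1.14 ± 0.23, while Tns1 had a ratio of 55.8 (18.9 to 273) over 3 adult counts (fitted log2 5.68 ± 0.58, or 9.22 without adult replicate 1). Kank2, a talin-binding protein, was higher by 1.73 ± 0.15 and Zyx, zyxin, lower at a log2 of -0.85 ± 0.10. Tln1 (talin) and Ilk, the integrin-linked kinase, were not called (log2 -0.10 ± 0.08 and -0.06 ± 0.11).

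Of 18 tested genes for the processing of matrix and its receptors 9 were higher and 4 lower, against 29.0% and 25.9% of all tested genes. Of the 13 genes over the limit in all libraries 5 were higher and 3 lower, against 23.1% and 27.8% of all such genes. Serpinh1, the collagen chaperone, stood at 56.5 ± 11.6 CPM over 0 adult counts and was at least 319-fold higher. P4ha1, a collagen prolyl hydroxylase, was higher by a log2 of 3.96 ± 0.22, the protease Adamts1 by 4.97 ± 0.19, and the matrix metalloprotease Mmp2, with no adult count, by at least 18.8-fold. Mmp7, the matrix metalloprotease of Paneth cells, was lower at a log2 of -2.84 ± 0.35 and Pomt1, which starts the laminin-binding sugar of dystroglycan, at -0.63 ± 0.12. Mmp14, a membrane-bound metalloprotease, was lower at a log2 of -0.28 ± 0.10, a call that was kept without fetal replicate 1 but lost without any other single library, with DESeq2 and with library size scaling (adjusted p = 0.0520 to 0.133).

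**Figure D5:**
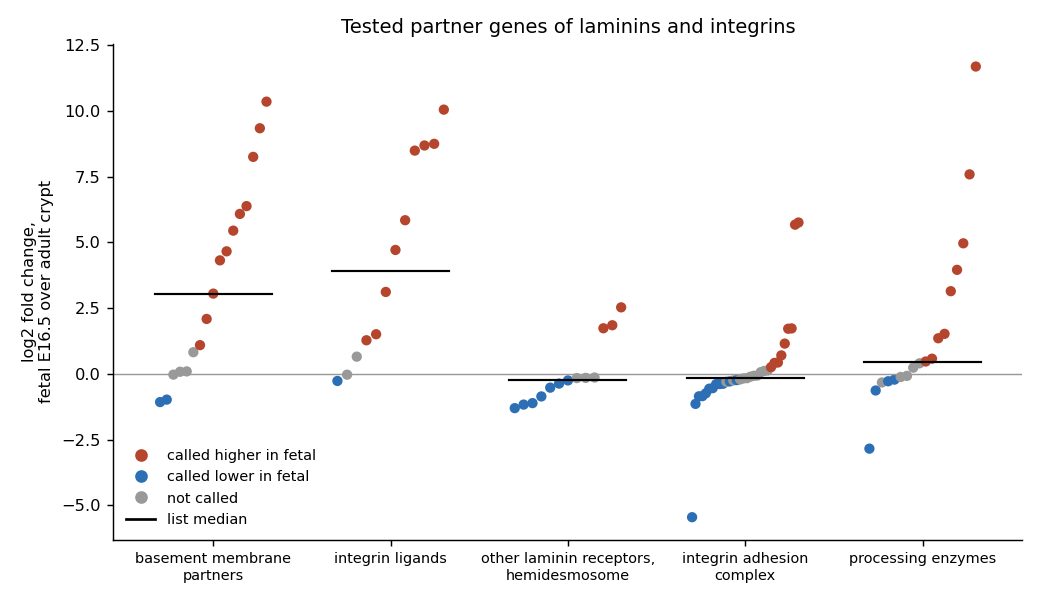
Log2 fold change of fetal over adult cells (y) for each tested gene of the 5 partner lists (x), ranked within its list and colored by call, with the list median as a line. Medians of the receptor and adhesion lists lie below 0, and the high points of the basement membrane and ligand lists are mostly genes under the count limit in adult libraries; genes with 0 adult counts are drawn at fitted values that are no bounds.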

How the data were processed

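The in vivo table, per the file headers, pairs Entrez identifiers and symbols with 6 columns, and the authors deposited whole-number counts there, with no normalization seen in the values. The submitters' processing notes name mm10 and edgeR. Adult libraries were made with a stranded pico-input kit, per the labels' protocols. For aligner, counter, annotation, strand setting and filters the entry is: not given in the sources used here. The 9 organoid columns were not used here.

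Counts were tested with edgeR 4.0.16 (R 4.3.3) by quasi-likelihood, with TMM scaling and filterByExpr (10 counts, a limit of 1.44 CPM in 3 libraries). Calls need a Benjamini-Hochberg adjusted p under 0.05 over all genes tested. The SE is the size of the log2 fold change divided by the square root of F, an approximation. CPM used TMM-scaled library sizes and kilobases the union of GENCODE vM21 exons (GRCm38). A group at 0 counts was set to 3 counts. Intervals of 95% and floors cover counting error only. As no label ties libraries to separate animals, p-values cover only the variation among these samples, which may be technical. Replicates varied beyond sampling noise. Rn45s was kept. The procedure was tested on simulated data in which far fewer genes changed than were called here, so that test does not cover differences of this extent. Members, lists and tests were chosen with earlier results of these data known. Values of 1 member, and of the chain family sums and shares that hold it, are not reported here. The other members are accounted for, and per partner list up to 4 called genes with the largest positive and 3 with the largest negative fold change were named, beside fixed partners; Dag1, Fermt1, Tln1 and Ilk were chosen after their values were seen. Alternatives were RLE and library size scaling, DESeq2 1.42.0, other low-count filters, leaving out Rn45s or each library, a replicate block and recentring by exon length.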

Additional observations from a re-analysis of the deposited data

How the results depend on the processing

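Under the 13 other settings, 14 or 15 members were higher and 9 or 10 lower, and of the 26 tested members only Itgb1 (library size only) crossed the threshold. Itgb2l, not called under any setting that tested it, ranged from -0.16 to 0.24 over the left-out libraries, and changed sign without fetal replicate 3 and without adult replicate 3 (-0.07). With the replicate block 14 members were higher and 9 lower, as without it, and the calls of Furin, Plec and Actn4 in the partner lists were lost and that of Icam1 gained. Libraries of the same number deviated from their group means with correlations of -0.0802, -0.0383 and -0.107. No fetal library correlated best with the adult library of its own number. With so few libraries this cannot show whether equal numbers share a batch or day, which the labels do not say. Recentring on genes of like exon length moved no member across 0, with medians of -0.11 to 0.10 over 10 bins of length. Left-out libraries gave a fetal minus adult difference of 20.2 to 23.9 points in the share of Lama5, 71.8 to 73.8 of Lamb1 and -11.5 to -10.8 of Itgb4. Without division by length, the difference for Itgb4 was -15.2 points, against -11.2 with it, since the chains differ in length. Depth limits the 13 untested members, of which Itgax was lower and Itgbl1 higher without the low-count filter (edgeR adjusted p = 0.0142 and 0.0170). The sums per chain family and their alternatives were chosen after seeing the data.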

Other observations

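Krt5, a keratin of basal epithelial cells, was found in 1 library alone, with 0, 0 and 23.7 CPM in fetal replicates 1 to 3 and 0 adult counts. Col17a1, Lama3 and Lamb3 were also highest in fetal replicate 3. Upk3b, a mesothelium marker, was present in all 3 fetal libraries at 34.2, 30.9 and 35.99 CPM, so the list of mesothelium markers, Krt5 included, summed to 36.9, 33.05 and 63.5 CPM.

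The platelet marker list was higher in adult cells (sum 164 to 205 against 34.1 to 44.5 CPM) through 1 gene, Gp1bb, at 42.7, 39.9 and 32.2 CPM in fetal and 161, 203 and 180.5 CPM in adult libraries. The other platelet genes with counts stood at a mean of at most 1.74 CPM in either group.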
